A study of Bos taurus with 4 samples.

Results

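The plasminogen activator system genes described here are PLAUR, PLAU, PLAT and SERPINE2, named as a list of 4 genes and taken with every row they have in a table of 14517 RefSeq transcript accessions. Each has 1 row: NM_174423 for PLAUR, NM_174147 for PLAU, NM_174146 for PLAT and NM_174669 for SERPINE2. The genes were proposed with values of the knockdown comparison in view, so their own values in that comparison are given as a description, without a test.

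The data are RNA-seq libraries of polyadenylated RNA from bovine (Bos taurus) embryos that had reached 8 to 16 cells and were collected 3 days after insemination, when genome activation takes place in cattle. Negative control siRNAs (small interfering RNAs) had been injected into the zygotes of the control group (NC, n = 2 libraries), and siRNAs against KDM5A, KDM5B and KDM5C into those of the knockdown group (KDM5_KD, n = 2 libraries). KDM5 proteins are demethylases of histone H3 lysine 4. The comparison asks how RNA levels at this stage differ when they are depleted. KDM5_KD replicate 2 is a Kdm5 knockdown by title but is listed as treated with KDM6A, KDM6B and KDM6C siRNAs, so results are also given without that library. Whole embryos were used, the number of embryos per library is not given in the sources used here, and the labels do not say that libraries came from separate collections, so the p-values measure only the spread between these samples, which may be technical.

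Plasminogen activators are secreted serine proteases that cut the inactive precursor plasminogen into plasmin, a protease with broad action on fibrin and extracellular matrix. PLAU encodes urokinase (uPA), PLAT encodes tissue-type plasminogen activator (tPA), and PLAUR encodes the cell surface receptor that holds urokinase at the membrane. SERPINE2 encodes protease nexin-1, a secreted serpin that inhibits urokinase, tissue-type activator, plasmin and thrombin. In the ovary and early embryo the system is known for its part in follicle rupture, cumulus and oocyte protease activity and, later, trophoblast invasion.

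The knockdown was examined first. KDM5A stood at 28.4 and 27.1 FPKM (fragment numbers scaled to transcript length and to the size of the library) in NC replicates 1 and 2 and at 10.5 and 10.1 in KDM5_KD replicates 1 and 2, and KDM5C at 28.1 and 40.6 against 15.1 and 17.8. KDM6A stood at 7.63 and 11.3 against 7.90 and 9.29 FPKM, so the library with the KDM6 treatment entry had KDM5 levels like those of the other knockdown library and a KDM6A level within the control range. KDM5B and KDM6B were not analysed here. The deposited FPKM summed to between 283347 and 322267 per library. Absolute depth is unknown, but the steps between low values place NC replicate 1 at 0.683 times, KDM5_KD replicate 1 at 0.802 times and KDM5_KD replicate 2 at 0.782 times the depth of NC replicate 2. As a check on the tissue, the 10 listed oocyte and early embryo genes were all present, with summed levels of 550.4 and 428 FPKM in NC and 660 and 740.1 in KDM5_KD.

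The receptor gene PLAUR stood at 13.0 and 11.1 FPKM in NC replicates 1 and 2 and at 31.2 and 37.7 FPKM in KDM5_KD replicates 1 and 2. Both knockdown libraries lay above both controls, and the controls lay close to each other. The group means were 12.1 ± 1.33 and 34.5 ± 4.54 FPKM (SD, n = 2 each), a ratio of 2.85 and a difference of 1.44 on the log2(FPKM + 1) scale. This scale, used for every difference below, understates changes of low values. Setting each knockdown library against each control library gave FPKM ratios between 2.40 and 3.38. In whole-embryo RNA, fewer cells of a type and less RNA per cell cannot be told apart, which holds for every level given here.

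PLAT, the gene of tissue-type plasminogen activator, stood at 18.0 and 3.90 FPKM in NC replicates 1 and 2 and at 37.8 and 58.7 FPKM in KDM5_KD replicates 1 and 2. The groups did not overlap, but the controls stood 4.61-fold apart, and of the 8970 transcripts tested 99.6% had a smaller difference of NC replicate 1 over NC replicate 2. The group means were 11.0 ± 9.97 and 48.3 ± 14.8 FPKM (SD, n = 2 each), a ratio of 4.40 and a log2 difference of 2.32. That difference was 1.34 against NC replicate 1 alone and 3.30 against NC replicate 2 alone. Its direction was therefore shared by both controls and its size was not: the FPKM ratios of single libraries ran from 2.10 to 15.0.

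PLAU, the gene of urokinase, was the lowest of the 4 by far, at 0.256 and 0.245 FPKM in NC replicates 1 and 2 and at 0.392 and 0.447 FPKM in KDM5_KD replicates 1 and 2. It was the 1 member of the 4 that missed the minimum mean of 1 FPKM for the test across transcripts. The groups did not overlap, with means of 0.250 ± 0.00786 and 0.419 ± 0.0391 FPKM (SD, n = 2 each), a ratio of 1.68 and a log2 difference of 0.18. Once each library was scaled by its relative depth, the PLAU values stood in the whole-number ratio 5 to 7 to 9 to 10 (NC replicates 1 and 2, KDM5_KD replicates 1 and 2), with a largest deviation of 0.0725%. The fragments behind these values may be 5, 7, 9 and 10 or a common multiple of these, and the common factor is unknown. After quantile normalization the log2 difference was 0.039, so its size depends on the scaling.

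SERPINE2, the gene of the inhibitor protease nexin-1, stood at 17.7 and 14.7 FPKM in NC replicates 1 and 2 and at 29.9 and 24.4 FPKM in KDM5_KD replicates 1 and 2. Again both knockdown libraries were above both controls. The means were 16.2 ± 2.12 and 27.1 ± 3.90 FPKM (SD, n = 2 each), a ratio of 1.68 and a log2 difference of 0.71. Unlike the other 3 genes, SERPINE2 was lower in KDM5_KD replicate 2 than in KDM5_KD replicate 1, and its log2 difference was 0.85 with KDM5_KD replicate 1 alone.

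**Figure D1:**
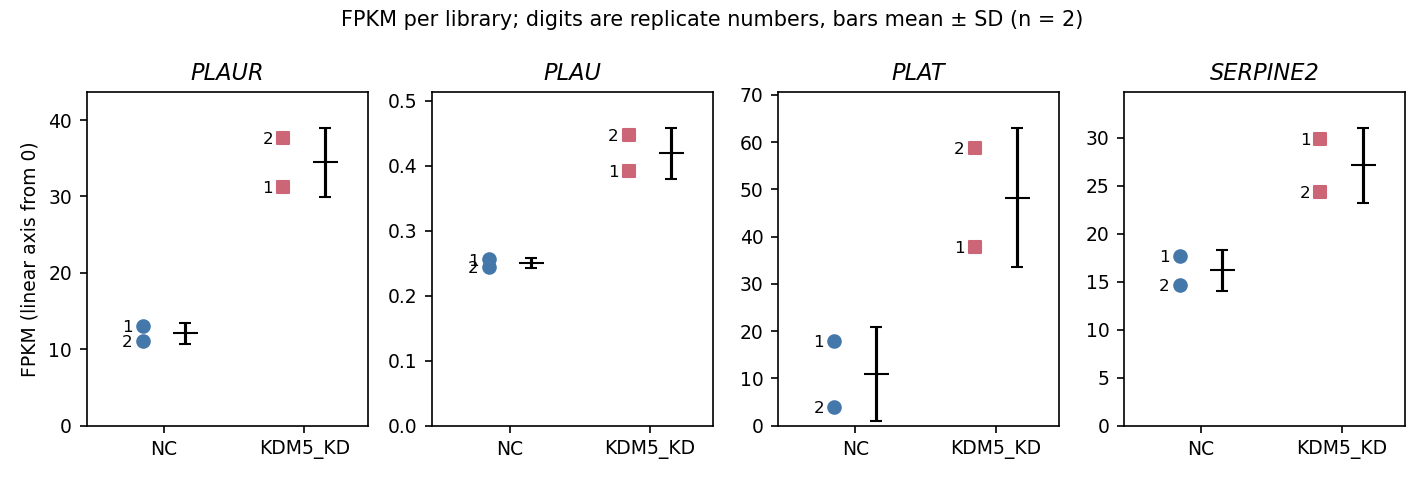
FPKM of PLAUR, PLAU, PLAT and SERPINE2 in each library (vertical axes in FPKM, linear and starting at 0; circles NC, squares KDM5_KD; digits are replicate numbers; bars are mean ± SD, n = 2). In all 4 panels both knockdown libraries lie above both controls, and PLAT has controls at 18.0 and 3.90 FPKM.

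Without KDM5_KD replicate 2, the library with the conflicting treatment entry, the log2 differences were 1.30 for PLAUR, 2.01 for PLAT, 0.15 for PLAU and 0.85 for SERPINE2. All 4 genes had knockdown values above both controls. The same held for 35.1% of the 8970 transcripts tested, and the genes were chosen on this contrast, so the count carries no weight. PLAUR and PLAT exceeded a 2-fold difference, as did 4.52% of transcripts tested, while 0.301% were at least 2-fold lower. SERPINE2 and PLAU lay below that line. SERPINE2 exceeded 90.9% of all transcripts tested in its log2 difference, PLAUR 98.2% and PLAT 99.7%, as the plot of level against group difference shows. Since the genes were chosen on this contrast, these shares carry no weight either.

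**Figure D2:**
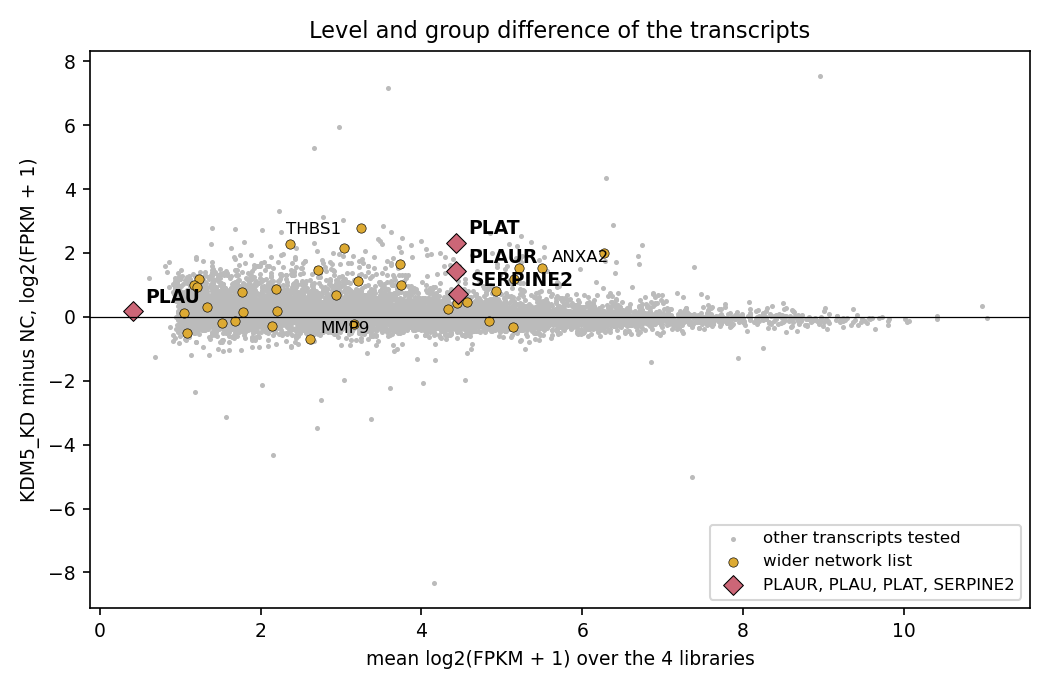
Mean log2(FPKM + 1) over the 4 libraries (horizontal axis) against the difference KDM5_KD minus NC on the same scale (vertical axis) for 8970 transcripts tested (grey), the wider plasminogen network list (yellow circles) and the 4 genes (red diamonds; PLAU is shown although it was not tested). PLAUR, PLAT and SERPINE2 have similar mean levels and differences of 1.44, 2.32 and 0.71.

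The order of the 4 genes by mean level was read in each group. In NC it was SERPINE2, PLAUR, PLAT and PLAU, where the libraries of PLAUR and PLAT overlapped, as did those of SERPINE2 and PLAT, and those of SERPINE2 and PLAUR did not. The third place of PLAT rests on NC replicate 2, since in NC replicate 1 PLAT, at 18.0 FPKM, was the highest of the 4. In KDM5_KD it was PLAT, PLAUR, SERPINE2 and PLAU. Neighbours in that second order did not overlap, although the gap between PLAT at 37.8 FPKM in 1 library and PLAUR at 37.7 FPKM in the other is far smaller than either spread. PLAUR ranked above 73.4% and 71.6% of all rows in NC replicates 1 and 2, and above 85.5% and 87.6% in KDM5_KD replicates 1 and 2. PLAU stayed near the same rank, above 29.3% to 30.5% of rows in the 4 libraries.

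**Figure D3:**
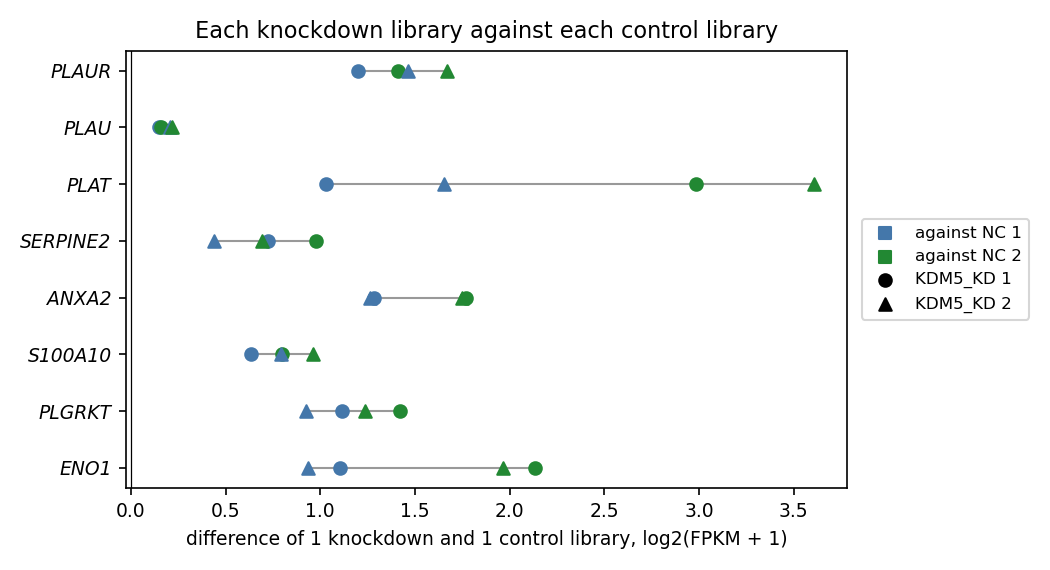
Difference on the log2(FPKM + 1) scale (horizontal axis) between each knockdown library (circle KDM5_KD replicate 1, triangle KDM5_KD replicate 2) and each control library (blue NC replicate 1, green NC replicate 2) for the 4 genes and 4 plasminogen-binding surface protein genes; grey lines span the 4 differences. All differences are above 0, and those of PLAT run from 1.03 to 3.61.

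Nearly all activator transcript in these embryos was PLAT rather than PLAU. PLAT made up 98.6% and 94.1% of their summed FPKM in NC replicates 1 and 2 and 99.0% and 99.2% in KDM5_KD replicates 1 and 2. The receptor transcript likewise exceeded that of its ligand: PLAUR was 50.9 and 45.5 times the level of PLAU in NC and 79.7 and 84.2 times in KDM5_KD. These ratios divide by PLAU values of 0.245 to 0.447 FPKM, which may rest on few fragments, so their size is uncertain. The substrate gene was barely represented. PLG, which encodes plasminogen, had 0.0217 and 0.0297 FPKM in the controls and 0.0554 and 0.152 FPKM in the knockdown, and after scaling for depth these values stood as 1 to 2 to 3 to 8 within 0.111%.

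SERPINB2 and SERPINI1 encode further inhibitors of the activators. SERPINB2, the gene of plasminogen activator inhibitor 2, had 0.204 and 0.417 FPKM in the controls, against 0.371 and 0.534 FPKM in the knockdown, and its groups overlapped. SERPINI1, the gene of neuroserpin, an inhibitor of tissue-type activator, had 0.321 and 0.630 against 1.20 and 1.40 FPKM. Both had a mean under 1 FPKM and were not tested.

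Within a library, PLAT was 1.02 and 0.266 times the level of SERPINE2 in NC replicates 1 and 2 and 1.26 and 2.41 times in KDM5_KD replicates 1 and 2. PLAUR was 0.737 and 0.758 times the level of SERPINE2 in NC, and 1.05 and 1.55 times in KDM5_KD. The groups did not overlap on either ratio, and the controls were close to each other on the second and far apart on the first. For PLAT to SERPINE2, NC replicate 1 lay nearer to KDM5_KD replicate 1 than to NC replicate 2. Both ratios are of genes chosen on this contrast and are descriptions.

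**Figure D4:**
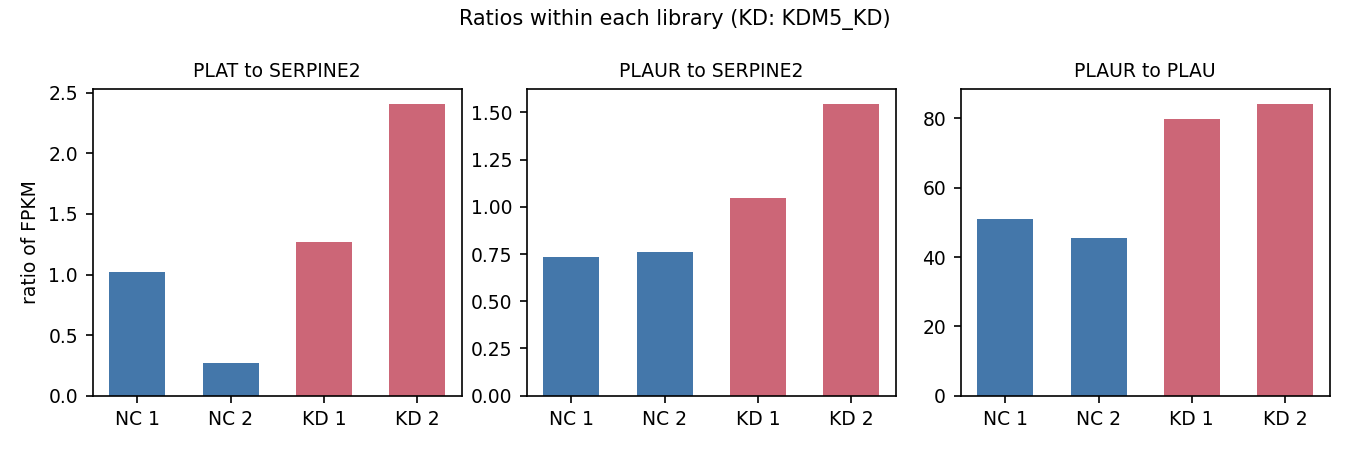
Ratios of FPKM within each library (vertical axes start at 0; blue NC, red KDM5_KD; bars are single libraries) for PLAT to SERPINE2, PLAUR to SERPINE2 and PLAUR to PLAU. The groups are apart in all 3 panels, and NC replicate 2 at 0.266 stands well below NC replicate 1 at 1.02 in the first. PLAU, the divisor in the last panel, was under 1 FPKM in every library, so the size of that ratio is uncertain.

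The wider network held 66 listed genes that make, bind, inhibit, clear or are cut by plasmin and its activators. Of these 61 had at least 1 row, and 33 rows had a mean of at least 1 FPKM and were tested. In limma no network transcript passed an adjusted p of 0.05, where 0.190% of all transcripts tested were called higher and 0.0892% lower. At an unadjusted p under 0.05, 16 of the 33 were higher (48.5%, against 14.3% of all transcripts) and 0 were lower (against 3.12%). Their median log2 difference was 0.77, against 0.09 for all transcripts tested, and 11 of the 33 (33.3%, against 4.52%) were at least 2-fold higher and 0 were 2-fold lower. Both knockdown libraries lay above both controls for 21 of them (63.6%, against 35.1% of all transcripts). The list was chosen with earlier results of these data known, so these shares are descriptions and carry no weight as support. The control libraries also differed: 24 of the 33 (72.7%, against 55.8% of all transcripts) had more FPKM in NC replicate 1 than in NC replicate 2. The part of that gap in the counts above was not tested. Without NC replicate 1 the median log2 difference of the network was 0.995, against 0.092 for all transcripts tested. Leaving out NC replicate 2 instead gave 0.487, against 0.099.

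All 4 plasminogen-binding surface protein genes lay above both controls in both knockdown libraries, as did 35.1% of all transcripts tested. ANXA2, which encodes the annexin that binds both plasminogen and tissue-type activator, had 30.6 and 21.6 FPKM in the controls, against 75.9 and 74.9 FPKM in the knockdown (log2 difference 1.52, SE 0.182, limma adjusted p of 0.0519). S100A10, which encodes its partner in the heterotetramer, was at 23.4 and 20.8 against 36.9 and 41.3 FPKM (log2 difference 0.80, limma adjusted p of 0.106). PLGRKT, a transmembrane plasminogen receptor gene, was at 0.735 and 0.400 against 2.76 and 2.30 FPKM (log2 difference 1.18, limma adjusted p of 0.108). ENO1, a glycolytic enzyme gene whose product also binds plasminogen at the surface, was at 30.1 and 14.3 against 65.9 and 58.5 FPKM (log2 difference 1.53, limma adjusted p of 0.123). None of the 4 passed the threshold. With median-ratio scaling, quantile normalization or rows summed by symbol ANXA2 did, at limma adjusted p of 0.0494, 0.0454 and 0.0438. Over its 12 alternatives the adjusted p of ANXA2 ran from 0.00381 without NC replicate 1 to 0.267 without KDM5_KD replicate 2.

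Among the partners of the urokinase receptor, ITGA5, the gene of the fibronectin receptor alpha chain, had the largest difference, from 4.63 and 1.71 to 16.3 and 16.2 FPKM (log2 difference 2.14, limma adjusted p of 0.0970). In this group 5 of 6 tested transcripts (83.3%, against 35.1% of all transcripts) lay above the controls in both knockdown libraries, and ITGB3, named after its values were seen, overlapped. VTN, the gene of vitronectin, a ligand of the receptor, was listed at 0 in every library. Among the clearance receptors, LRP1 was not analysed here. The largest difference was that of MRC2 (NM_001369911), an endocytic collagen receptor gene, at 6.23 and 1.13 against 13.5 and 7.17 FPKM (log2 difference 1.47, limma adjusted p of 0.280). A second row of MRC2, not tested with a mean under 1 FPKM, had 0.292 and 0.290 against 1.84 and 1.26 FPKM.

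THBS1, the gene of thrombospondin 1, led the substrates, matrix proteases and their inhibitors. It had 5.85 and 0.893 FPKM in NC replicates 1 and 2, against 23.4 and 24.5 FPKM in the knockdown (log2 difference 2.79, SE 0.559, limma adjusted p of 0.114). Its control libraries thus stood far apart, as those of PLAT did. The thrombin branch holds genes grouped around thrombin, a protease that protease nexin-1 also inhibits. It had a median log2 difference of 0.013 over 6 transcripts tested, and the gene of thrombin itself was not among them. F3, the gene of tissue factor, differed most there, at 8.79 and 8.29 against 11.9 and 27.1 FPKM (limma adjusted p of 0.244), most of it in KDM5_KD replicate 2. Of the 33 network transcripts tested, 5 lay below both controls in both knockdown libraries (15.2%, against 15.6% of all transcripts). They were ST14, LRPAP1, IGF2R, SERPINC1 and SERPIND1, all but the first named after their values were seen. ST14, the gene of the membrane serine protease matriptase, was at 2.04 and 1.10 against 0.976 and 0.593 FPKM (log2 difference -0.51, limma adjusted p of 0.381).

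**Figure D5:**
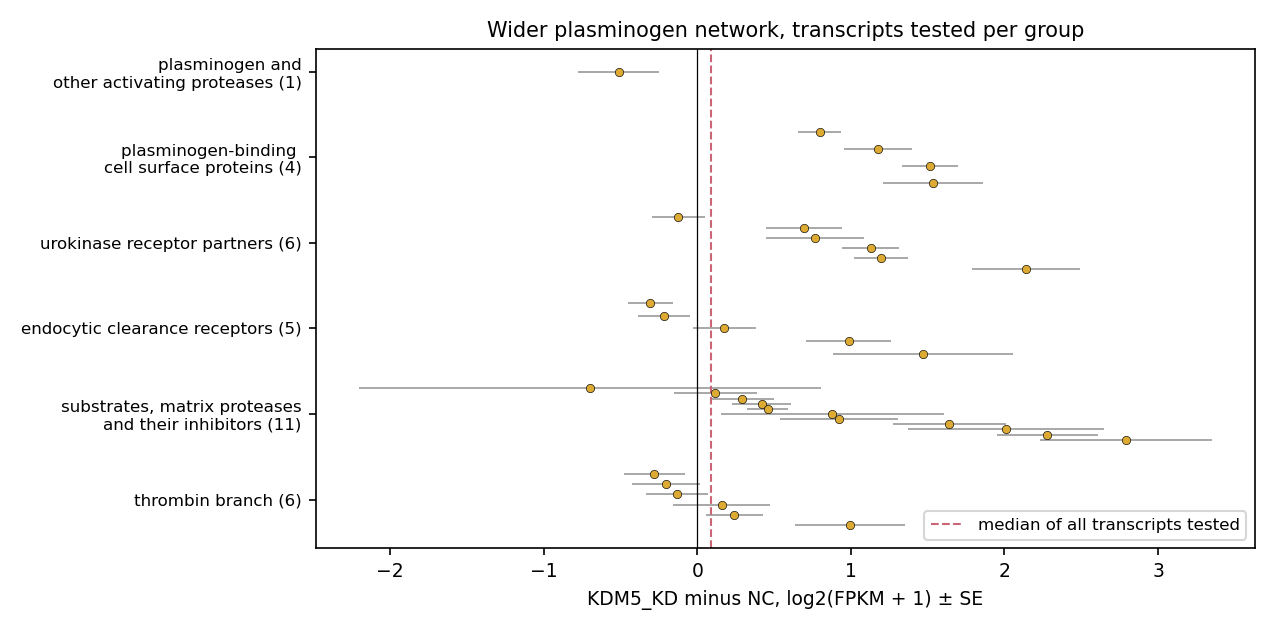
Difference KDM5_KD minus NC on the log2(FPKM + 1) scale with its SE from the limma fit (horizontal axis) for the 33 network transcripts tested, by group with the number tested in brackets; the dashed line is the median of all transcripts, 0.09. The plasminogen-binding surface proteins lie to its right, and the thrombin branch lies on both sides.

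Plasminogen activator genes are also expressed by cumulus and granulosa cells, which surround the oocyte, so markers of these cells were read in the same libraries. Of 18 listed markers all had a row, and their summed level was 38.4 and 26.7 FPKM in the controls, against 82.5 and 75.2 FPKM in the knockdown. Of the 11 tested, 9 lay above the controls in both knockdown libraries (81.8%, against 35.1% of all transcripts), 8 (72.7%, against 14.3% of all transcripts) were higher at an unadjusted limma p under 0.05 and none passed after adjustment. LUM, at 4.02 and 5.12 against 23.8 and 15.6 FPKM, had the largest difference (limma adjusted p of 0.0610). CYP11A1 and HSD3B1, which encode steroid-synthesis enzymes, had 8.41 and 3.79 against 12.5 and 17.2 FPKM, and 2.52 and 1.75 against 5.78 and 4.80 FPKM. The matrix and surface genes HAS2, GREM1, VCAN and CD44 were likewise above the controls in both knockdown libraries. The tested markers that were not above the controls were AMH and TNFAIP6. Their groups overlapped, with log2 differences of -0.42 for AMH and -0.055 for TNFAIP6. The gonadotropin receptor and aromatase genes were at or near 0: FSHR was listed at 0 in both controls and reached 0.0443 FPKM, LHCGR was listed at 0 in 3 libraries and at 0.0434 FPKM in the other, and CYP19A1 reached 0.0602 FPKM. The list was itself chosen with earlier results of these data known. The markers named here were picked from it after their values were seen. The part of such cells in the values of the plasminogen activator genes was not tested. Sperm markers summed to between 0.695 and 1.75 FPKM.

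The transcripts whose profile over the 4 libraries lay nearest to each gene were found by the root mean square difference of log2(FPKM + 1) values centred on their own mean, among 8748 candidates. They describe likeness over 4 libraries and nothing more. Nearest to PLAT were VIM (0.147), the gene of the intermediate filament vimentin, SERPINH1 (0.153), the gene of a collagen chaperone, and MX1 (0.164), an interferon-induced gene. VIM had 35.6 and 8.09 FPKM in the controls, against 84.6 and 98.1 FPKM in the knockdown, repeating the gap between the controls. Only 6 candidates came within 0.2 of PLAT, against 62 for PLAUR and 656 for SERPINE2. Nearest to PLAUR were CYYR1 (0.0510), AIFM1 (0.0665), which encodes a mitochondrial flavoprotein, and GPX8 (0.0783), a glutathione peroxidase family gene of the endoplasmic reticulum. GPX8 had 0.822 and 0.776 FPKM in the controls, against 3.39 and 3.91 FPKM in the knockdown. The scale understates changes of low values, so near profiles can differ in fold change. Ratios of mean FPKM, KDM5_KD to NC, were 4.99 for CYYR1, 3.81 for AIFM1 and 4.57 for GPX8, against 2.85 for PLAUR. Nearest to SERPINE2 were MEX3A (0.0214), an RNA-binding protein gene, LGALS3 (0.0246), the gene of galectin-3, and COX7B2 (0.0251). Their ratios of mean FPKM were 1.785, 2.76 and 2.56, against 1.68 for SERPINE2.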

How the data were processed

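FPKM values for 4 libraries were read from a table the authors deposited, with 1 row per RefSeq accession. The submitters' processing notes name Trimmomatic, HISAT2, featureCounts and Cufflinks without roles or versions, and the genome build and annotation are not given in the sources used here, so no positions or sequences are printed. The smallest value above 0 is 4.83e-141, so some values are model estimates, and a listed 0 may mean that no estimate was made. Symbols came from RefSeq's ARS-UCD2.0 gene table, which matched 14295 of 14517 accessions. Strand-specific counting is not stated, and reads of overlapping genes or near-identical copies, such as those of ENO1, ANXA2 and S100A10, may be divided.

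The fit used log2(FPKM + 1) of all 4 libraries in limma, version 3.58.1 under R 4.3.3 (lmFit, eBayes with a trend, no covariates) over 8970 transcripts with a mean of at least 1 FPKM, and p-values were adjusted by Benjamini-Hochberg over all of them. On 5 simulated tables of 8970 transcripts the fit called 92.4% of changes of 2 and 29.4% of changes of 1 on the log2 scale. Of its calls, 4.99% were unchanged transcripts. The simulated variances came from the variance model of the same fit, with noise independent between transcripts and libraries. Spread shared between transcripts was therefore absent, and these shares do not measure power or false calls in the real libraries. Relative depth was taken from ratios of values between 0.001 and 0.3 FPKM, 50.1% to 50.8% of which lay within 2% of ratios of whole numbers up to 4. Whole-number ratios of single genes were accepted within 0.5%. FPKM are not counts, so no count model, interval or detection floor is given, and precision rests on 2 libraries per group. Tables used pandas 2.3.3 and numpy 2.4.6 under Python 3.11.15, and plots matplotlib 3.10.9.

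The 4 genes and the lists were chosen with earlier results of these data known. By the naming rule, the genes named are the 4 members, KDM5 and KDM6 genes with a row, any network transcript called, the other activator inhibitors reported and plasminogen-binding proteins, PLG, VTN and LRP1, the largest difference in each other network group, and the 3 nearest profiles of each tested member. ITGB3, the cell type markers named, 4 of the 5 network transcripts below the controls and the genes in the closing observations fall outside it and were chosen after their values were seen. The settings varied were the pseudocount (0.1), the filter (none, or a mean of 5 FPKM), median-ratio scaling, quantile normalization, no trend, a replicate block, rows summed by symbol and leaving out each library. 1 further gene was left out of the network list and is not reported here.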

Additional observations from a re-analysis of the deposited data

How the results depend on the processing

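The log2 differences of PLAUR, PLAT and SERPINE2 kept their direction in every alternative run and moved by less than their pooled SD. A fit that drops 1 of 2 libraries is bounded by that SD, so this says nothing about stability. Over the 4 fits without 1 library PLAUR lay between 1.30 and 1.57, PLAT between 1.34 and 3.30, SERPINE2 between 0.57 and 0.85 and PLAU between 0.15 and 0.21. PLAU, at 0.18, went to 0.57 with a pseudocount of 0.1, which weighs low values more, and to 0.039 with quantile normalization. In the network, 0 transcripts were called by limma, against 1 (ANXA2) with median-ratio scaling, quantile normalization or rows summed by symbol, and 0 to 12 when 1 library was left out; fits without 1 library have 1 residual degree of freedom and assume that the lone library varies like the others. The largest number came without NC replicate 1, the fit in which calls over all transcripts were also most numerous. MMP9 was the 1 network transcript at least 2-fold lower with a pseudocount of 0.1, and the number lower was 0 to 1 without 1 library.

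Over all transcripts, 17 were called higher and 8 lower. There were 2 and 1 with no filter, 11 higher with a mean of at least 5 FPKM, 6 higher without a trend, and 3 to 323 higher and 3 to 17 lower without 1 library. At 2-fold, 405 were higher and 27 lower, against 715 and 58 with a pseudocount of 0.1, 260 and 55 with quantile normalization, 219 higher with the stricter filter, and 250 to 640 higher and 39 to 48 lower without 1 library. The replicate numbers are shared by the groups but no label says what they mark. Deviations of same-numbered libraries correlated at 0.229 across transcripts, and with the replicate block 8 transcripts were called higher and 4 lower, none of them in the network. KDM6A lay between -0.37 and 0.15 without 1 library, changing sign without NC replicate 2. KDM5A (log2 difference -1.35, limma adjusted p of 0.0333) lost the threshold in 6 alternatives, with limma adjusted p over all 12 between 0.0224 and 0.232. Quantile normalization moved the median difference of all transcripts from 0.09 to -0.045. Causes were not tested.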

Other observations

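The genes given here were chosen after their values were seen. MMP9, the gene of a matrix gelatinase, had 23.0 and 1.55 FPKM in NC replicates 1 and 2, against 18.6 and 0.180 FPKM in KDM5_KD replicates 1 and 2, so it was high in both libraries numbered 1, by 14.8-fold and 103-fold. Transcripts at least 10 times higher in both libraries numbered 1, with at least 1 FPKM there, were 3 of the 8970 tested: MMP9, APLN and LOC533308. The opposite held for 5 transcripts: FAM118A, VAMP2, LOC768323 and 2 accessions without a symbol. MMP2, another gelatinase gene, had 6.84 and 0.457 FPKM in the controls, against 5.70 and 4.77 FPKM in the knockdown, so NC replicate 1 was the highest library and NC replicate 2 the lowest.

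TIMP1, the gene of a secreted metalloprotease inhibitor, had 78.9 and 17.5 FPKM in the controls, against 186 and 127 FPKM in the knockdown, and its controls differed by a similar factor to those of PLAT. TFPI, the gene of the tissue factor pathway inhibitor, was listed at 0 in both controls and at 0.752 and 0.603 FPKM in KDM5_KD. Fibrinogen chain genes, whose product plasmin degrades, were near 0: FGA, FGB and FGG did not exceed 0.456 FPKM in any library.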
